A study of Mus musculus with 35 samples.

Results

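The genes described here are the enzymes of cholesterol synthesis, the SREBP regulators of that pathway, and the genes of sterol transport and oxysterol formation. A list of 31 genes was taken to the array, and each was represented by the probe set that named it alone and had the highest mean over the arrays, chosen apart for the surgery and the naive arrays. Of the 31 genes 29 had such a probe set, among 18194 genes in all: 17 of synthesis, 5 of SREBP control, 5 of transport and 2 that hydroxylate cholesterol. Acat2 and Soat1 were not analysed here. The animals were male FVB mice, either wild-type or beta2 adrenergic receptor knockout, and every array held total RNA from 1 whole brain hemisphere. The β2 adrenergic receptor is a receptor for adrenaline and noradrenaline, and the labels give no cell type or driver for the knockout. In middle cerebral artery occlusion (MCAO) a main artery of the brain is blocked, and the ischemic hemisphere was taken 24 h later (7 wild type and 7 knockout arrays). Sham-operated mice gave the hemisphere of the operated side at 24 h (3 arrays per genotype). Naive mice, normalized apart from the operated ones, gave 8 wild type and 7 knockout arrays, and their labels carry a 24 h mark too, without saying what it refers to. The labels do not say that each array was a separate animal, so the tests reflect only how these arrays vary. The number of arrays, with 3 per sham group, limits the precision.

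Brain cholesterol is made inside the brain, because lipoproteins of the blood do not cross the blood-brain barrier. SREBP2, the product of Srebf2, is held in the endoplasmic reticulum with its escort SCAP and the retention proteins INSIG1 and INSIG2 while sterol is plentiful. When sterol falls, SCAP carries it to the Golgi, where it is cleaved, and the released part switches on the synthesis genes and Insig1. Sterol in excess leaves cells through ABCA1 and ABCG1 onto APOE particles, genes that oxysterols raise through the liver X receptors. CH25H and CYP46A1 each turn cholesterol into an oxysterol, the first mostly in inflamed or activated cells and the second in neurons.

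The promoters of 6 genes are shown to place the results on sequence: 3 of genes with a CCAAT box that rose after MCAO in 1 or both genotypes (Msmo1, Hsd17b7 and Insig1), that of Hmgcs1, which opens the pathway and did not pass the test, that of the synthesis gene that fell, and that of Ch25h, the member with the largest change. The sequences are from RefSeq on GRCm38.p6, cover the 250 bases before the annotated transcription start, and run 5′ to 3′ on the gene's strand. Capitals mark the CCAAT box, which reads ATTGG where it lies on the opposite strand, and a sterol regulatory element (TCACNCCAC).
Hmgcs1 (chr13:119690101-119690350, plus strand): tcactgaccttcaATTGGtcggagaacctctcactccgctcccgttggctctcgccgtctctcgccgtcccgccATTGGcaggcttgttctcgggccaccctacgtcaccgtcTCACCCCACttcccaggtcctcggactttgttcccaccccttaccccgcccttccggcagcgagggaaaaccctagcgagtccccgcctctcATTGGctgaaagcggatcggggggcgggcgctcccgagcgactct
Msmo1 (chr8:64733579-64733828, minus strand): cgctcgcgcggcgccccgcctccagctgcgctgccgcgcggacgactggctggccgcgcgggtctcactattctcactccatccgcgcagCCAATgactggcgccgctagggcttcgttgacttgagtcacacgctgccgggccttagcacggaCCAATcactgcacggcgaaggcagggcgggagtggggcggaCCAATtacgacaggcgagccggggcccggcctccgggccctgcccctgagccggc
Hsd17b7 (chr1:169969206-169969455, minus strand): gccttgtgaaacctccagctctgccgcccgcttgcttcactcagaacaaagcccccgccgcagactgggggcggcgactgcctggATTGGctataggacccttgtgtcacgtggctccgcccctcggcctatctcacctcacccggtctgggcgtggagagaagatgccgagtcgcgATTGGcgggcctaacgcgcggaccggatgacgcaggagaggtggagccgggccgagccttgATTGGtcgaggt
Insig1 (chr5:28071162-28071411, plus strand): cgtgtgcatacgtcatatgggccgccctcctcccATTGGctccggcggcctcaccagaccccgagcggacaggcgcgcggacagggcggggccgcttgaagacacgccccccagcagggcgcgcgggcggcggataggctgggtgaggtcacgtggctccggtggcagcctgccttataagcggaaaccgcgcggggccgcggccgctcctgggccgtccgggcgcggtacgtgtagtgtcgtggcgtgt
Tm7sf2 (chr19:6067851-6068100, minus strand): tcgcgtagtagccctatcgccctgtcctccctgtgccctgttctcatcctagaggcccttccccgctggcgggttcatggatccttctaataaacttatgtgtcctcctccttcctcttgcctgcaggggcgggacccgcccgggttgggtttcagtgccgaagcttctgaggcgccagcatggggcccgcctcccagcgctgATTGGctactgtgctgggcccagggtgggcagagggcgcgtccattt
Ch25h (chr19:34475149-34475398, minus strand): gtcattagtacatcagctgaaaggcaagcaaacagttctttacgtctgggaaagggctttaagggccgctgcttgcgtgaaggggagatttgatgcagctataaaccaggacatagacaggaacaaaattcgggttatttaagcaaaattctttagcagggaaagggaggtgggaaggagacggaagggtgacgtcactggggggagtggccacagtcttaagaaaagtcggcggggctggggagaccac
Hsd17b7 and Msmo1 each carry 3 CCAAT boxes. Hmgcs1 carries 3 as well, and the sterol regulatory element beginning 137 bases before the start. Insig1 and Tm7sf2 have 1 box each, and Ch25h has none.

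Of the 29 genes 23 had an entry in the promoter table, with 33 promoters in all, and no entry was used for Fdps, Fdft1, Sqle, Stard4, Abcg1 and Npc1. The CCAAT box was found on either strand in 14 of 17 promoters of synthesis genes (82.35%), against 33.85% of 32851 promoters of the same length. At least 2 boxes were present in 9 of the 17 (52.94%, against 10.09%). The GC box (GGGCGG, either strand) was found in 14 of the 17, against 32.74% of all promoters. The sterol regulatory element, searched as TCACNCCAC only, was found in 1 of the 17, against 1.05%. Elements spelled otherwise were not searched for and would not be counted. For the SREBP control genes 5 of 10 promoters had a CCAAT box, and for the transport genes 0 of 4 did. No motif contains another, and a match describes the sequence only.

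**Figure D1:**
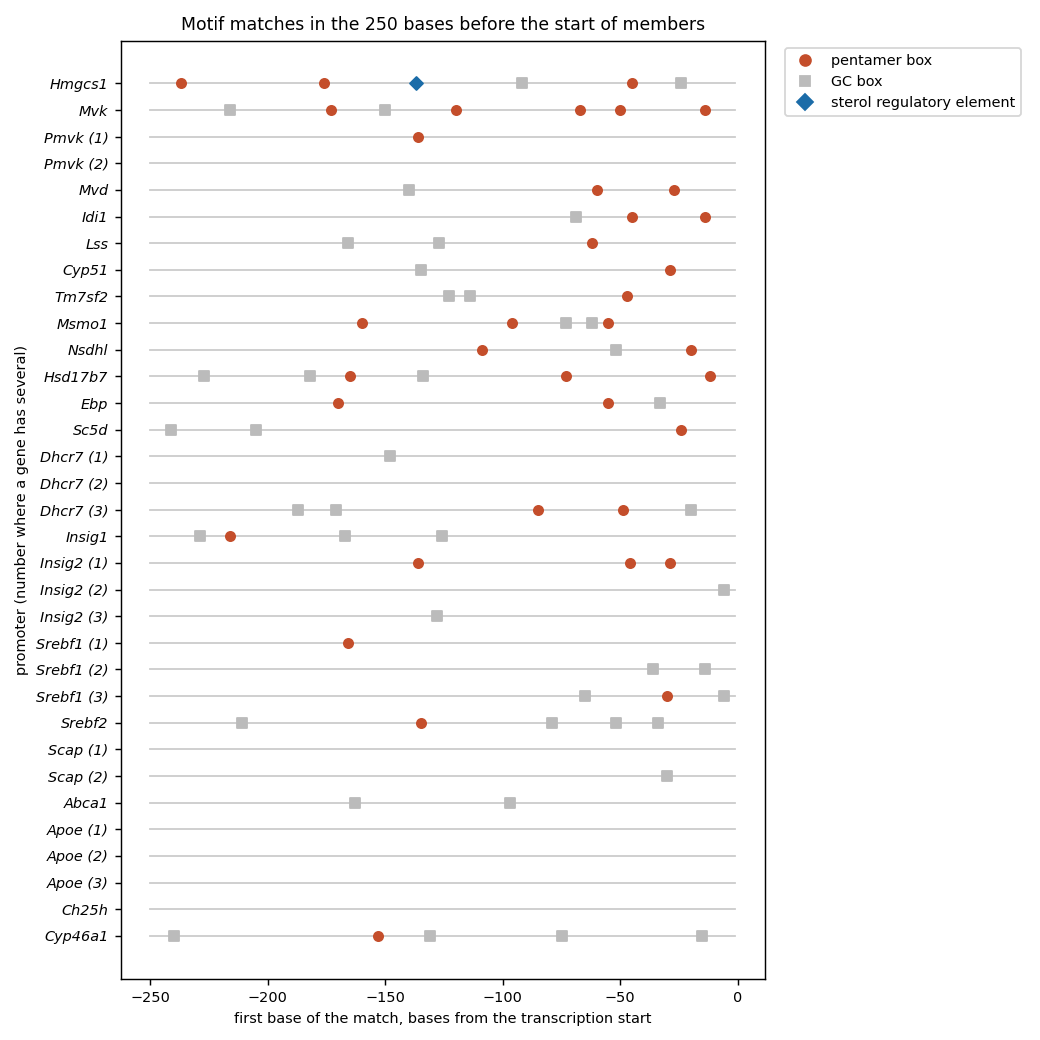
Positions of motif matches in the 250 bases before the start of each promoter, in bases from the transcription start (0 at the right), with 1 line per promoter. Red dots are the CCAAT box (labelled pentamer box), grey squares the GC box and the blue diamond the sterol regulatory element. Red dots stand on 14 of the 17 lines of synthesis genes, and the single diamond is in Hmgcs1.

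The values are RMA expression levels, a summary of each probe set's brightness on a log2 scale, and differences between groups are on that scale. Over the surgery arrays the median correlation of an array with the others was 0.973 to 0.987, the lowest for wild type MCAO array 4. Actin probes at the 3′ end minus those at the 5′ end, a sign of RNA or labelling quality, were 0.86 to 1.01 in wild type sham, 1.60 to 1.76 in knockout sham, 0.39 to 1.70 in wild type MCAO and 0.43 to 1.75 in knockout MCAO arrays. Wild type naive array 6 stood apart, with a median correlation of 0.819 (0.983 to 0.993 for the other naive arrays) and an actin difference of 4.88 (at most 0.82 in the others). Naive results are therefore given with and without it. Neuronal markers were present as the labelled tissue has them: the summed signal of 5 neuronal markers was 14.9 to 15.3 on the log2 scale over the surgery arrays.

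After MCAO genes of cholesterol synthesis, Insig1, Abca1 and Ch25h rose, and Tm7sf2, Apoe and Cyp46a1 fell, in 1 or both genotypes. In wild type mice 5 of the 29 genes rose and 2 fell, where 8.67% of all genes rose, 7.26% fell and 15.9% were called in either direction. In knockout mice 12 rose and 3 fell, against 16.1% and 8.91% of all genes and 25% in either direction. Calls rest on limma, with p-values adjusted by the Benjamini-Hochberg method across the 18194 genes and a threshold of 0.05. The median change of the 29 was 0.20 in wild type (0.046 over all genes) and 0.30 in knockout mice (-0.0046 over all genes). Hsd17b7, Insig1, Abca1 and Ch25h rose and Tm7sf2 and Cyp46a1 fell in both genotypes. The genotypes were each set against their own sham arrays, and the same 3 sham arrays serve every gene of a genotype. Array quality was unbalanced in the knockout comparison, with actin differences of 1.60 to 1.76 in sham and 0.43 to 1.75 in MCAO arrays. With the actin difference as a covariate Lss, Sqle, Dhcr7 and Ebp lost the knockout call. In that fit 15.7% of all genes were called in knockout and 21.1% in wild type mice.

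**Figure D2:**
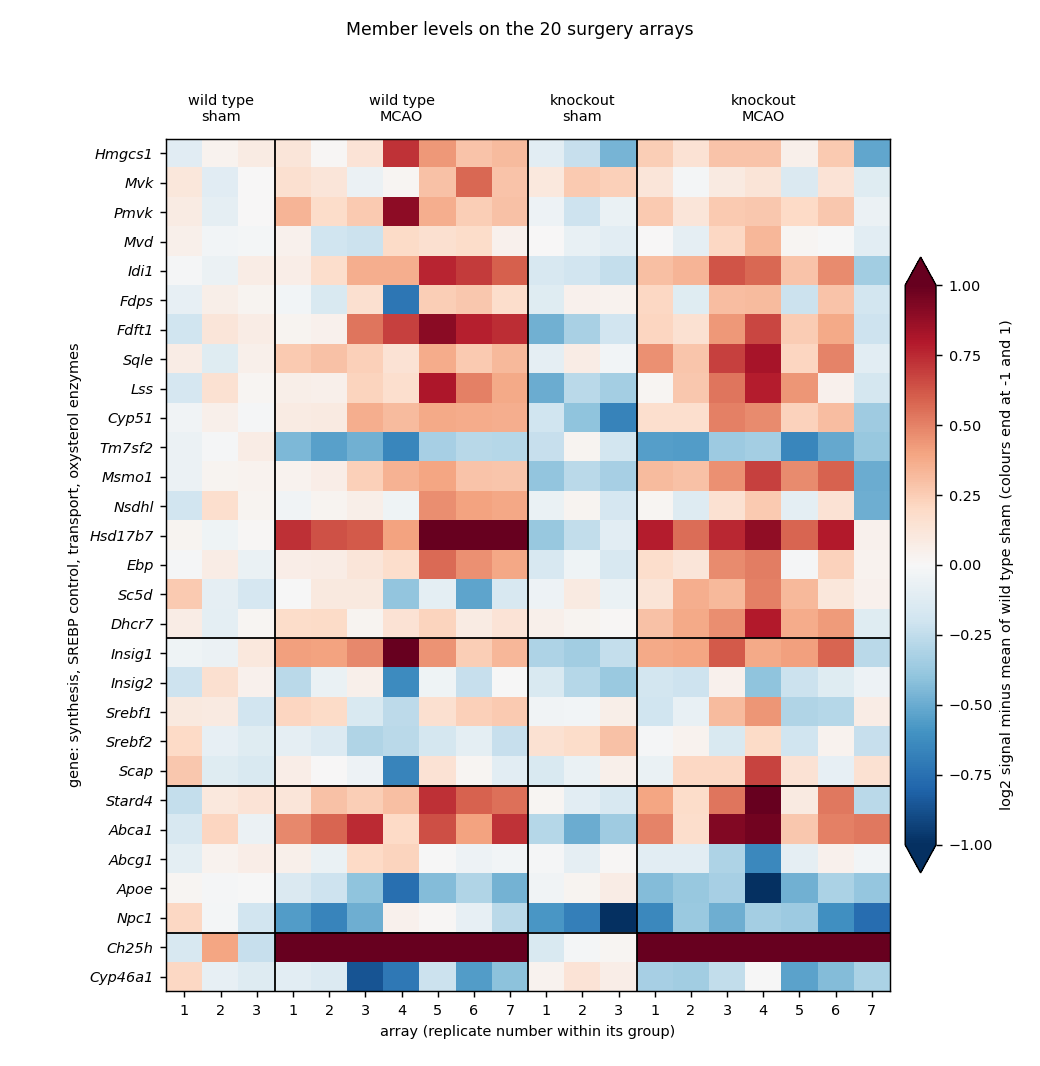
Log2 signal of the 29 genes (rows, grouped by role) on the 20 surgery arrays (columns, numbered within each group), as the difference from the mean of the wild type sham arrays. Colours end at -1 and 1, so Ch25h, higher by about 3, is beyond the scale. The synthesis rows are mostly red in the MCAO arrays of both genotypes, except for knockout MCAO array 7 and for Tm7sf2.

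Among the 17 synthesis genes 2 rose and 1 fell in wild type mice, with a median change of 0.26. Their differences were above 0 for 14 of 17, against 56.8% of all genes. In knockout mice 9 rose and 1 fell, with a median of 0.34 and 15 of 17 above 0, against 49.4% of all genes. MCAO and sham arrays did not overlap for 6 of the 17 in wild type (all 29 genes: 7 higher and 2 lower, against 10.6% and 9.27% of all genes, 19.9% together) and for 4 in knockout mice (all 29: 5 higher and 3 lower, against 15.6% and 9.17% of all genes, 24.8% together).

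The first steps build mevalonate and its phosphates. Hmgcs1, which joins acetyl units to HMG-CoA, was at 11.62, 11.77 and 11.82 in the wild type sham arrays and at 11.75 to 12.46 (median 12.03) after MCAO, a difference of 0.29 (SE 0.16, adjusted p = 0.218). In knockout mice its sham values were 11.63, 11.51 and 11.27 and its MCAO values 11.22 to 12.02 (median 11.98), a difference of 0.37 (SE 0.16, adjusted p = 0.0858). The sham and MCAO ranges overlapped in both genotypes, in the knockout only through array 7, and without that array the difference was 0.48 (adjusted p = 0.00912). All 4 other probe sets of Hmgcs1 pointed up in both genotypes and none was called. Pmvk, the second kinase of mevalonate, rose in wild type mice, from 8.75, 8.58 and 8.67 to 8.85 to 9.56 (median 8.96), by 0.37 (SE 0.12, adjusted p = 0.0412). Its ranges were apart in wild type. In the knockout Pmvk differed by 0.30 (adjusted p = 0.0733). Mvk, the first mevalonate kinase, did not pass (0.20, adjusted p = 0.231, in wild type and -0.18, adjusted p = 0.25, in knockout mice). The other probe set of Mvk was called lower in knockout mice, and the mean of its sets gave -0.30 (adjusted p = 0.0335). Mvd, the decarboxylase, did not pass either (0.03 and 0.11).

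The isoprenoid steps lead to squalene. Idi1, the isomerase of the isoprene unit, rose in knockout mice from 9.04, 9.01 and 8.96 to 8.86 to 9.83 (median 9.54), by 0.52 (SE 0.17, adjusted p = 0.0276). Only array 7 was not above the sham values, and it was below them. In wild type Idi1 was at 9.19, 9.14 and 9.28 in sham and 9.27 to 9.96 (median 9.56) after MCAO. The difference of 0.43 did not pass (adjusted p = 0.084). The other probe set of Idi1 was called higher in knockout mice and pointed down in wild type. The mean of its sets gave 0.72 (adjusted p = 0.00798) in the knockout and 0.21 (adjusted p = 0.445) in wild type. Fdft1, the squalene synthase, rose in knockout mice from 9.72, 9.88 and 10.01 to 10.00 to 10.87 (median 10.46), by 0.60 (SE 0.18, adjusted p = 0.0204), and differed by 0.53 in wild type (adjusted p = 0.0522). Of its 3 other probe sets 1 was called higher in each genotype and 2 pointed down in the knockout. With the mean of its probe sets the knockout value was 0.17 (adjusted p = 0.28) and the wild type value 0.33 (adjusted p = 0.0487). Fdps, the farnesyl diphosphate synthase just before it, did not pass (-0.01 in wild type and 0.10 in knockout mice).

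Squalene is then oxidized and folded into lanosterol. Sqle, the squalene epoxidase, rose in knockout mice from 9.57, 9.74 and 9.63 to 9.56 to 10.48 (median 10.12), by 0.42 (SE 0.14, adjusted p = 0.0278). In wild type all 7 MCAO arrays (9.81 to 10.03) lay above the 3 sham arrays (9.73, 9.54 and 9.71), but the difference of 0.27 did not pass (adjusted p = 0.178). Lss, the lanosterol synthase, rose in knockout mice from 7.16, 7.38 and 7.31 to 7.47 to 8.43 (median 7.92), by 0.64 (SE 0.18, adjusted p = 0.012), with no overlap. The difference in wild type was 0.31 (adjusted p = 0.23). Its 2 other probe sets were split in the knockout, and their mean with the chosen set gave 0.19 (adjusted p = 0.237) in the knockout and 0.34 (adjusted p = 0.0487) in wild type, where that mean was called.

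The last block of enzymes trims lanosterol to cholesterol. It held the synthesis gene with the largest rise, Hsd17b7, and the only synthesis gene called lower on its chosen probe set, Tm7sf2. Hsd17b7, a ketoreductase of the demethylation steps, was at 8.27, 8.21 and 8.26 in wild type sham and 8.65 to 9.40 (median 8.98) in wild type MCAO arrays. It rose by 0.82 (SE 0.17, 1.76-fold, adjusted p = 0.00207). In knockout mice Hsd17b7 went from 7.87, 8.01 and 8.14 to 8.29 to 9.13 (median 9.0), a rise of 0.87 (SE 0.17, 1.83-fold, adjusted p = 0.000811). Sham and MCAO arrays did not overlap in either genotype, and all 3 other probe sets pointed up in both, 1 of them called in wild type. The chosen set of Hsd17b7, like that of Fdft1, is of a class whose probes can match further transcripts.

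Msmo1, the methylsterol oxidase, was at 9.56, 9.69 and 9.62 in knockout sham and 9.46 to 10.63 (median 10.40) in knockout MCAO arrays, a rise of 0.66 (SE 0.16, 1.58-fold, adjusted p = 0.00654). Only array 7 was not above the sham arrays. In wild type all 7 MCAO arrays of Msmo1 (9.99 to 10.34) lay above the 3 sham arrays (9.89, 9.98 and 9.98), with a difference of 0.23 that did not pass (adjusted p = 0.342). Cyp51, the lanosterol demethylase, rose in knockout mice from 8.55, 8.35 and 8.08 to 8.39 to 9.25 (median 8.97), by 0.64 (SE 0.14, adjusted p = 0.00284). Here too the wild type arrays were apart, 8.83 to 9.13 against 8.71, 8.80 and 8.73, without a call (0.28, adjusted p = 0.18). Of the remaining enzymes Ebp, a sterol isomerase, rose by 0.34 (adjusted p = 0.0496) and Dhcr7, which reduces the immediate precursor to cholesterol, by 0.34 (adjusted p = 0.0424), in knockout mice. Nsdhl and Sc5d did not pass in either genotype, though 1 of the 2 other probe sets of Sc5d was called higher in knockout mice.

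Tm7sf2, a sterol reductase acting directly after CYP51, fell. Its values were 8.78, 8.83 and 8.91 in wild type sham and 8.19 to 8.56 (median 8.39) in wild type MCAO arrays, a change of -0.43 (SE 0.098, adjusted p = 0.0048). In knockout mice Tm7sf2 went from 8.61, 8.87 and 8.66 to 8.19 to 8.50 (median 8.32), a change of -0.35 (SE 0.098, adjusted p = 0.0124). The groups did not overlap in either genotype. Lbr, the second gene for that reductase activity and no member of the list, rose in knockout mice by 0.71 (adjusted p = 0.00169) and was not called in wild type.

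Of the 5 genes of SREBP control only Insig1 was called. Insig1, itself a target of SREBP, was at 8.67, 8.65 and 8.82 in wild type sham and 8.96 to 9.74 (median 9.12) in wild type MCAO arrays, a rise of 0.48 (SE 0.16, adjusted p = 0.0431). In knockout mice it went from 8.41, 8.37 and 8.48 to 8.44 to 9.33 (median 9.11), a rise of 0.65 (SE 0.16, 1.57-fold, adjusted p = 0.00518). Every wild type MCAO array was above every sham array. In the knockout 6 of 7 were, and array 7 lay inside the sham range. Srebf2 differed by -0.19 (adjusted p = 0.201) in wild type and -0.26 (adjusted p = 0.0597) in knockout mice. Srebf1 (0.09 and -0.003), Scap (-0.08 and 0.23) and Insig2 (-0.17 and 0.11) did not pass in wild type or knockout mice. The 2 other probe sets of Insig2 were called higher in knockout mice, and the mean of its sets gave 0.33 (adjusted p = 0.0262).

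**Figure D3:**
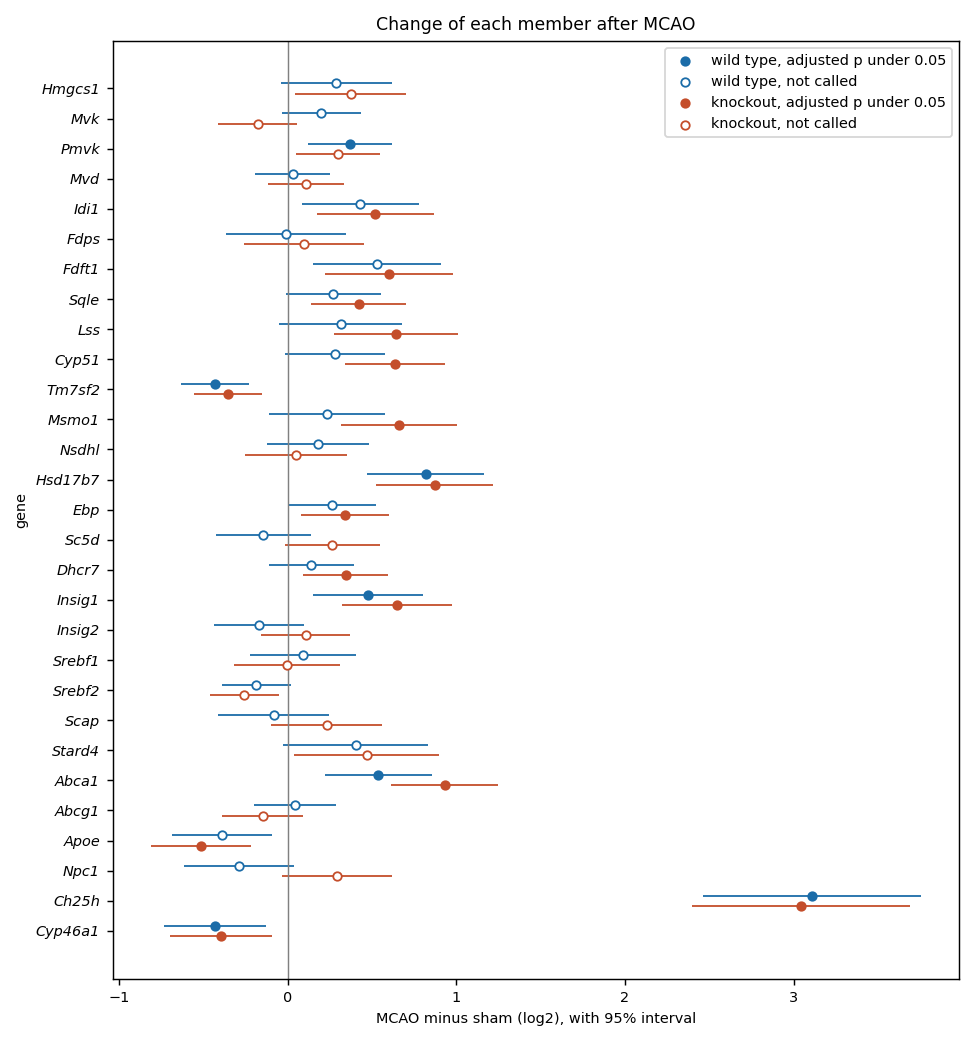
MCAO minus sham difference (log2) of each gene with its 95% interval, in wild type (blue) and knockout mice (red). Filled points passed an adjusted p of 0.05. Ch25h lies near 3 in both genotypes, most synthesis genes lie to the right of 0, and Tm7sf2, Apoe and Cyp46a1 lie to the left.

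Among the transport genes Abca1, the lipid exporter of the cell surface, rose in both genotypes. It was at 9.18, 9.55 and 9.28 in wild type sham and 9.54 to 10.09 (median 9.92) in wild type MCAO arrays, a rise of 0.54 (SE 0.15, 1.45-fold, adjusted p = 0.0197). In knockout mice Abca1 went from 9.06, 8.84 and 8.98 to 9.52 to 10.30 (median 9.84), a rise of 0.93 (SE 0.15, 1.91-fold, adjusted p = 0.000204). The knockout groups did not overlap, and the wild type groups did at 1 array. Both further Abca1 probe sets were called higher in the knockout and neither in wild type. The wild type call was lost with the mean of the probe sets (0.42, adjusted p = 0.0833) and with the replicate block (0.56, adjusted p = 0.0605). Apoe, the main sterol carrier of the brain, fell in knockout mice from 13.39, 13.45 and 13.50 to 12.31 to 13.11 (median 13.04), a log2 change of -0.51 (SE 0.14, adjusted p = 0.0123). In wild type it was at 13.44, 13.41 and 13.42 in sham and 12.67 to 13.28 (median 13.02) after MCAO, a difference of -0.39 that did not pass (adjusted p = 0.0672). All MCAO arrays lay below all sham arrays in both genotypes. Abcg1, Npc1, which moves sterol out of lysosomes, and Stard4, a cytosolic sterol carrier, did not pass. Stard4 differed by 0.40 (adjusted p = 0.189) in wild type and 0.47 (adjusted p = 0.0997) in knockout mice.

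The oxysterol enzymes moved in opposite directions. Ch25h was at 5.90, 6.46 and 5.83 in wild type sham and 8.05 to 9.68 (median 9.23) in wild type MCAO arrays, a rise of 3.11 (SE 0.31, 8.62-fold, adjusted p = 1.66e-06). In knockout mice it went from 5.92, 6.05 and 6.08 to 8.27 to 9.76 (median 9.15), a rise of 3.04 (SE 0.31, 8.25-fold, adjusted p = 1.61e-06). Every MCAO array lay above every sham array in each genotype. Cyp46a1 fell, with log2 changes of -0.43 (SE 0.14, adjusted p = 0.0472) in wild type and -0.40 (SE 0.14, adjusted p = 0.0499) in knockout mice. Its sham values were 11.40, 11.11 and 11.06 in wild type and 11.23, 11.33 and 11.26 in knockout mice, against 10.33 to 11.08 and 10.66 to 11.19 after MCAO, with an overlap in wild type only.

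**Figure D4:**
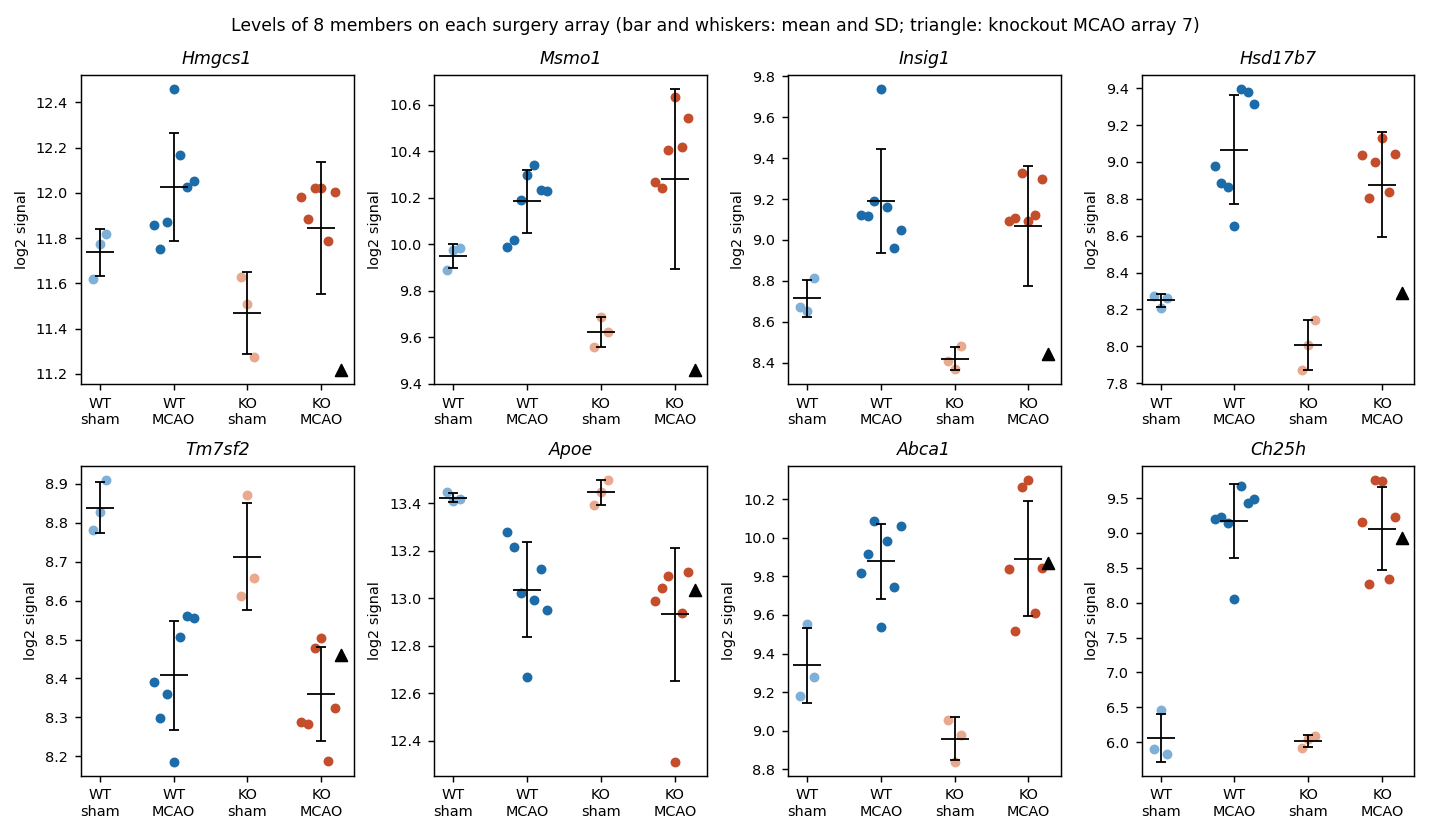
Log2 signal of 8 genes on each surgery array by group, with the mean and SD as a bar with whiskers and knockout MCAO array 7 as a black triangle. The triangle lies at or just below the knockout sham arrays for Hmgcs1, Msmo1 and Insig1 and a little above them for Hsd17b7, but among the other MCAO arrays for Tm7sf2, Apoe, Abca1 and Ch25h.

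The MCAO arrays of a genotype were not alike for the synthesis genes. Knockout MCAO array 7 had the lowest value of its 7 arrays for 13 of the 17 genes (it was lowest for 22.2% of all genes). Only 3 of the 17 lay above the highest knockout sham array there, against 12 to 15 in each of the other 6 knockout MCAO arrays. Its share of all genes above the sham arrays, 35.9%, was within the 32.5% to 46.2% of the other 6. Relative to the mean of those 6 arrays, Msmo1 was lower on array 7 by 0.96, Idi1 by 0.78, Hmgcs1 by 0.73, Insig1 by 0.73 and Stard4 by 0.77. Ch25h (8.93 against 8.27 to 9.76), Abca1 (9.87 against 9.52 to 10.30), Apoe (13.04 against 12.31 to 13.11), Tm7sf2 (8.46 against 8.19 to 8.50) and Cyp46a1 (10.87 against 10.66 to 11.19) were inside the range of the others. The array did not stand apart in quality, with a median correlation of 0.987 and an actin difference of 0.43. The summed signal of leukocyte markers was the lowest of its group there (8.87 against a group mean of 9.95), as were those of astrocytes, choroid plexus, meninges and erythrocytes. Whether these bear on the synthesis genes was not tested.

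At the other end knockout MCAO array 4 was highest of its group for 14 of the 17 synthesis genes (29.9% of all genes), and wild type MCAO array 5 for 10 of 17 (15.3% of all genes). In wild type the arrays 5, 6 and 7 had 14 or 15 of the 17 genes above the highest sham array, and the arrays 1 to 4 had 8 to 12. Of all genes 36.5%, 45.9% and 39.5% lay above it on arrays 5, 6 and 7, and 32.5% to 42.5% on arrays 1 to 4. For Hsd17b7 arrays 5, 6 and 7 were at 9.40, 9.38 and 9.31 and the other 4 at 8.65 to 8.98. Idi1 was at 9.96, 9.90 and 9.80 on these arrays and at 9.27 to 9.56 on the other 4. No label sets the arrays 5, 6 and 7 apart. Their actin differences were 0.98, 0.93 and 0.99, against 0.53, 0.58, 0.39 and 1.70 on arrays 1 to 4. Whether array quality bears on these counts was not tested.

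Calls in the MCAO comparisons leaned on the sham arrays, of which there were 3 per genotype. Without wild type sham array 1, 2 or 3 the wild type count was 3, 4 or 3 of 29, and the share of all genes called was 7.89%, 10.2% or 9.18%. Without knockout sham array 1, 2 or 3 the knockout count was 8, 7 or 9, and the share of all genes 20.4%, 13.4% or 12.8%. Ch25h, Hsd17b7 and Tm7sf2 were called in wild type without any single array. In knockout mice this held for Ch25h, Abca1, Hsd17b7, Cyp51, Msmo1 and Insig1. In wild type Insig1 was lost without any 1 sham array or MCAO array 3, 4 or 5 (highest adjusted p = 0.147), Pmvk without any 1 sham array or MCAO array 1 or 5 (0.153), Abca1 without sham array 1 or 3 (0.123), and Cyp46a1 without any 1 sham array or MCAO array 3, 4, 6 or 7 (0.254). In knockout mice Cyp46a1 (highest adjusted p = 0.156), Dhcr7 (0.135) and Ebp (0.163) were lost without each sham array and most MCAO arrays. Idi1 (0.102) and Sqle (0.0968) were lost without any 1 sham array or MCAO array 3, Fdft1 without sham array 1 or 2 (0.0872), Apoe without sham array 2 or 3 (0.0626), Lss without sham array 1 (0.0552) and Tm7sf2 without sham array 2 (0.106). Each of these genes kept its direction in every such fit.

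Cell markers moved with MCAO too. Of 5 leukocyte markers 4 rose in each genotype, and their summed log2 signal went from 8.62 to 8.79 in wild type sham to 10.39 to 12.16 after MCAO, and from 8.56 to 8.76 to 8.87 to 11.15 in knockout mice. Of 6 endothelial markers 3 rose in each genotype. Astrocyte markers rose in 2 of 6 cases in each genotype, namely Gfap, a filament of reactive astrocytes, and Aldh1l1. Microglial markers fell in 3 of 5 cases in each genotype, and neuronal markers fell in 1 of 5 cases in wild type and 0 of 5 in knockout mice. Meningeal and fibroblast markers rose in 1 of 6 cases in wild type and 3 of 6 in knockout mice. Oligodendrocyte markers rose in 2 of 5 cases in wild type and 1 of 5 in knockout mice, with summed signals of 14.7 to 14.9 in sham and 14.9 to 15.5 in MCAO arrays of wild type. Their part in the sterol gene changes was not tested, and in whole hemispheres fewer cells of a type and less RNA per cell cannot be told apart.

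The question whether the genotype altered the response was put to the interaction, the change in knockout minus the change in wild type mice. None of the 29 genes was called by limma, where 9.59% of all genes were (4.09% higher and 5.5% lower). An unadjusted p under 0.05 was found for 3 of the 29 (Mvk, Sc5d and Npc1) and for 5732 of all 18194 genes. The smallest adjusted p-values were those of Npc1 (0.58, adjusted p = 0.0875) and Mvk (-0.38, adjusted p = 0.112). Of the 2 other probe sets of Insig2 1 was called (0.80, adjusted p = 0.0329 over all probe sets). The mean of the Insig2 sets was called too (0.49, adjusted p = 0.0407), in a fit that called 9% of all genes. For the genes called in knockout mice only, the difference of changes was 0.42 for Msmo1 (95% interval -0.06 to 0.91), 0.36 for Cyp51 (-0.06 to 0.77), 0.33 for Lss (-0.19 to 0.85), 0.20 for Dhcr7 (-0.15 to 0.56) and 0.15 for Sqle (-0.25 to 0.55). It was 0.09 for Idi1, 0.08 for Ebp, 0.07 for Fdft1 and -0.13 for Apoe, the other genes called in knockout mice only. The interval of each of these 9 genes includes 0. Other probe sets, none of them called, gave -0.34 and -0.43 for Lss and 0.76 and -0.23 for Cyp51. They gave 0.94 for Idi1, 0.21 for Msmo1 and 0.05, -0.44 and -0.32 for Fdft1. Without knockout MCAO array 7 the value of Msmo1 was 0.56 (adjusted p = 0.0281).

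Levels after MCAO were also compared directly between the genotypes. None of the 29 genes was called by limma (0.044% of all genes were, 0.0165% higher and 0.0275% lower). An unadjusted p under 0.05 was found for 4 of the 29 and for 3165 of all 18194 genes. Leaving Ch25h aside, the differences ran from -0.26 to 0.40 and their 95% intervals from -0.55 to 0.62. Sc5d, a sterol desaturase, showed the largest, 8.87 to 9.33 in knockout against 8.29 to 8.92 in wild type mice (0.40, adjusted p = 0.117), and its 2 other probe sets pointed the other way. For Ch25h the difference was -0.11 (95% interval -0.61 to 0.39).

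Between the sham groups Npc1 was the only call. It was at 8.17, 7.95 and 7.77 in wild type and 7.38, 7.28 and 6.81 in knockout sham arrays, a difference of -0.81 (SE 0.19, adjusted p = 0.023), where 2.53% of all genes were called lower, 3.52% higher and 6.05% in either direction. The call was lost without each wild type sham array and without knockout sham array 2 or 3 (differences from -0.92 to -0.63 over all 6 fits, highest adjusted p = 0.147). The 3 knockout sham arrays lay below the 3 wild type ones for 8 of 29 genes and above them for 0, against 21.8% and 20.4% of all genes, 42.2% together. Besides Npc1 these were Cyp51, Lss, Msmo1, Idi1, Hsd17b7, Insig1 and Abca1, with differences of -0.20 (Idi1) to -0.42 (Cyp51) that did not pass. The 2 other probe sets of Lss and the 3 of Hsd17b7 pointed the other way, and the 2 of Cyp51 were split. The other sets of Idi1, Msmo1 and Abca1 pointed down too. With the mean of its sets the Lss difference was -1e-04. The same sham arrays enter the MCAO change of each genotype. The knockout sham arrays also had the higher actin differences (mean 1.66, SD 0.083, against 0.93, SD 0.077), and genotype and array quality cannot be told apart there.

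In the mice labelled naive, Ch25h was lower and 2 genes were higher in the knockout. Ch25h was at 6.20 to 7.38 (median 6.36) in 8 wild type and 4.93 to 5.21 (median 5.02) in 7 knockout arrays, a difference of -1.43 (SE 0.15, 2.69-fold lower, adjusted p = 3.53e-05). The groups did not overlap, and without wild type array 6, which held the highest value, the difference was -1.29 (adjusted p = 2.05e-09). Sqle was at 9.88 to 10.37 in wild type and 10.59 to 10.70 in knockout arrays, higher by 0.39 (SE 0.071, adjusted p = 0.00194). Stard4 was at 8.29 to 8.70 in wild type and 8.72 to 9.03 in knockout arrays, higher by 0.43 (SE 0.083, adjusted p = 0.00288). These 3 of 29 compare with 6.36% of all genes called higher, 8.3% lower and 14.7% in either direction. All 3 were called without any single array, but Stard4 did not pass after repeated quantile normalization (0.26, adjusted p = 0.06). On the values as deposited the ranges were apart for 7 of 29 genes, 6 higher and 1 lower (5.53% and 5.26% of all genes, 10.8% together). Between the sham groups the Ch25h difference was -0.05 (95% interval -0.82 to 0.71), and no test was made across the surgery and naive arrays, which were normalized apart.

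S100a8 and S100a9, which mark neutrophils, were the 2 of 5 leukocyte markers that were lower in naive knockout mice, and the summed leukocyte signal was 9.36 to 9.58 in knockout and 9.33 to 9.81 in wild type arrays other than array 6. Of the other lists 1 of 5 microglial, 1 of 6 endothelial and 1 of 6 meningeal markers were higher, and 1 of 3 erythrocyte markers was lower. Their part in the Ch25h difference was not tested.

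Without wild type naive array 6, 15 of the 29 genes were called higher and 1 lower in the knockout, but so were 24.1% and 12.4% of all genes, 36.5% together. Ranges were apart for 9 genes higher and 1 lower, against 9.13% and 5.46% of all genes, 14.6% together. Synthesis genes made up 11 of these calls, with a median difference of 0.20 over the 17 (0.060 over all genes), and Insig1, Srebf2, Stard4 and Npc1 the others. Lss differed most, 7.48 to 7.98 in 7 wild type and 8.31 to 8.49 in knockout arrays (0.54, adjusted p = 2.85e-05). Of 5 microglial markers 5, of 6 endothelial markers 4 and of 6 meningeal markers 4 were also called higher there. The summed microglial signal was 11.69 to 11.89 in the 7 wild type and 11.98 to 12.13 in the knockout arrays, and the endothelial one 11.10 to 11.37 and 11.41 to 11.60. Their part in the sterol gene differences was not tested. Hmgcs1 differed by 0.35 (adjusted p = 0.00342) and Insig1 by 0.32 (adjusted p = 0.00253). For Lss and Fdps 1 other probe set each was called lower over the 15 arrays. On array 6 itself Apoe was at 6.52, against 13.84 to 13.95 on the other 7 wild type arrays, and Hsd17b7 at 10.90, against 8.61 to 8.73.

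The count in naive mice moved with the scaling. The naive arrays of the genotypes differed as a whole: medians over all probe sets were 6.87 to 6.94 in wild type and 7.03 to 7.05 in knockout arrays, and the lowest values 3.49 to 3.73 and 3.19 to 3.28. Centring each array on its median took the median difference of all genes from 0.052 to -0.096, and without array 6 from 0.060 to -0.094. Without array 6 it left 4 genes higher (among them Lss, 0.39, adjusted p = 0.000306, and Fdps, 0.12, adjusted p = 0.0453) and 3 lower, where 35.1% of all genes were called and 16.7% of those calls were higher. Repeated quantile normalization without array 6 left 9 higher and 1 lower, where 22.2% of all genes were called and 46.6% of those calls were higher. Ch25h was called lower in each of these fits. Its signal was low, at a median of 6.36 in wild type and 5.02 in knockout arrays, so it was not among the 9097 brighter genes fitted alone. In that fit of all 15 arrays 1.79% of genes were called and 96.9% of those calls were higher. Over all genes these shares were 14.7% and 43.4%.

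**Figure D5:**
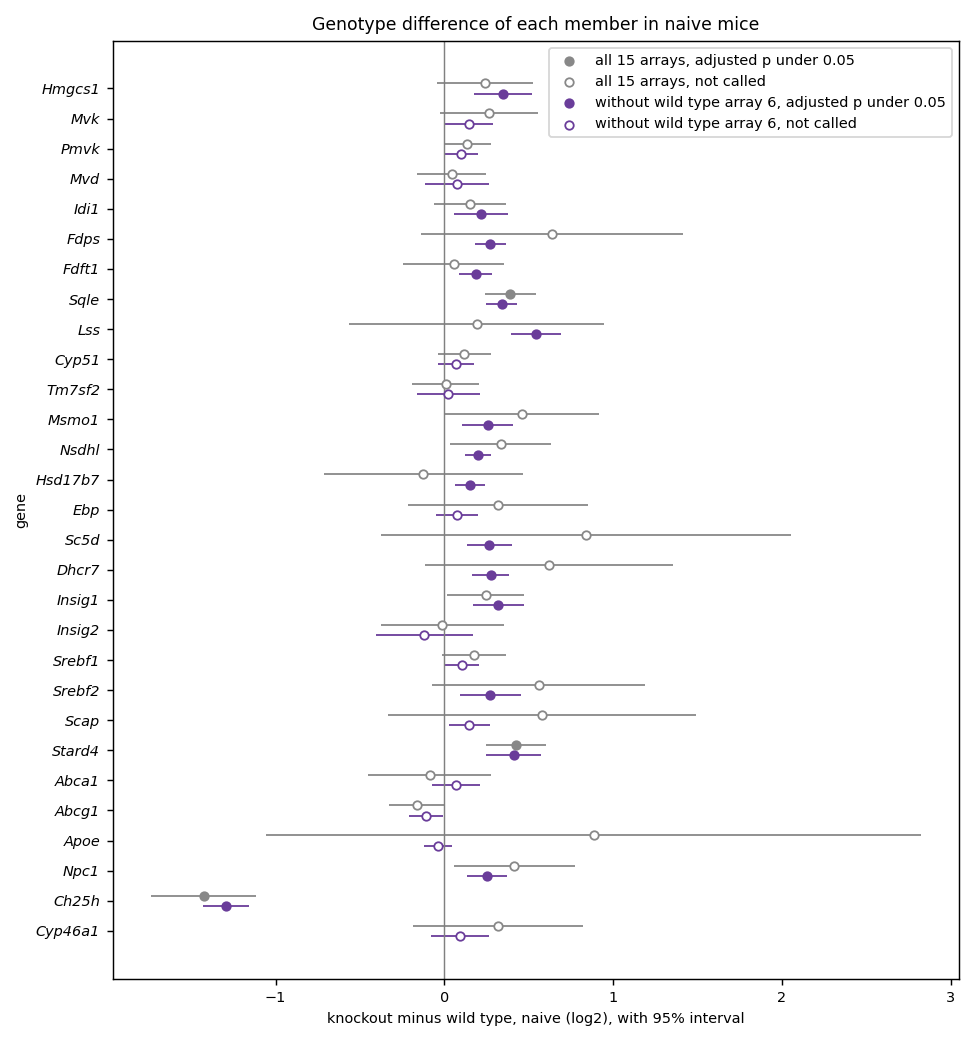
Knockout minus wild type difference (log2) of each gene in naive mice with its 95% interval, from all 15 arrays (grey) and without wild type array 6 (purple). Filled points passed an adjusted p of 0.05. Ch25h lies at -1.43 and -1.29, and the purple intervals are narrower, with 15 filled points to the right of 0.

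Other genes around the pathway were followed in lists. Their counts stand beside 15.9% of all genes called in wild type (8.67% higher and 7.26% lower). In knockout mice 25% of all genes were called (16.1% higher and 8.91% lower). An unadjusted p under 0.05 was found for 5645 of all 18194 genes in wild type and for 7030 in knockout mice. Of 7 genes that move or cleave SREBP or turn it over, Sec24d, a coat protein of vesicles leaving the endoplasmic reticulum, rose by 0.93 (adjusted p = 0.00128) in wild type and 1.10 (adjusted p = 0.000187) in knockout mice, and Trib1 by 0.93 and 1.08. Together 2 rose and 2 fell in wild type and 3 rose and 0 fell in knockout mice. Of 12 genes of fatty acid synthesis 0 were called in wild type by limma (1 had an unadjusted p under 0.05) and 1, Fads2, was lower in knockout mice. None of 7 genes of the liver X receptors and their partners was called by limma in either genotype (0 in wild type and 3 in knockout mice had an unadjusted p under 0.05). Of 12 genes of lipoprotein uptake and lysosomes Apod, a lipid carrier of glia, rose by 1.66 and 1.82, and in all 1 rose and 1 fell in wild type and 3 rose and 1 fell in knockout mice. Of 8 genes of sterol hydroxylation and steroid formation Tspo, which marks activated glia, rose by 1.24 and 1.11 and Hsd3b7 by 1.10 and 1.36 in wild type and knockout mice. In all 2 of the 8 rose and 1 fell in each genotype, the fallen gene being Cyp11a1 in wild type (-0.82) and Star in knockout mice (-0.37). Of 8 genes listed as other isoprenoid and sterol enzymes 0 were called in wild type by limma (2 had an unadjusted p under 0.05), and in knockout mice Lbr rose and Hacl1 fell (-0.54, adjusted p = 0.000794). Hacl1 acts in fatty acid breakdown, not in sterol synthesis. Of 12 genes of sterol transfer and export 1 rose and 1 fell in wild type and 0 were called in knockout mice by limma (1 had an unadjusted p under 0.05).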

How the data were processed

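Total RNA of mouse brain hemispheres was hybridised to Affymetrix whole-genome mouse expression arrays. The authors deposited log2 expression values made with RMA, per the submitters' processing notes; the version is not given in the sources used here. Surgery and naive arrays were normalized apart and were fitted apart.

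Of 45101 probe sets 34958 named 1 gene, which gave 18194 genes. limma 3.58.1 in R 4.3.3 (lmFit, contrasts.fit, eBayes) was fitted to all 18194 genes over the 20 surgery arrays and over the 15 naive arrays, with Benjamini-Hochberg adjustment over all genes and a threshold of 0.05. The steps were tested on simulated data. Every member with a probe set was named, and of each neighbouring list up to 4 called genes with the smallest p; marker lists were given by counts and range. Lbr, Gfap and other markers named outside that rule were chosen after their values were seen. The members and lists were chosen with earlier results of these data known. The receptor gene targeted by the knockout is not reported here.

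Replicate numbers were checked for pairing. The correlation of same-numbered arrays' deviations ran from -0.176 to 0.336 over the 3 wild type sham and MCAO pairs. Over the 7 naive pairs it ran from -0.0915 to 0.361. The numbers were not taken to pair arrays. Differently numbered arrays were not compared in this way, so the check cannot exclude pairing. Alternatives were other scaling, probe set means, array weights, filters, covariates and leaving out each array.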

Additional observations from a re-analysis of the deposited data

Results flagged for a closer look

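In a group of 4 to 10 arrays, a value was singled out where the gap from the highest or lowest array to its nearest neighbour took more of the group's range than Dixon's 95% limit; chance singles out about 1 in 20 groups.

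Knockout MCAO array 7 was far below the other 6 for Hmgcs1 (11.22), Idi1 (8.86), Cyp51 (8.39), Msmo1 (9.46), Hsd17b7 (8.29) and Insig1 (8.44). Knockout MCAO array 4 was far below for Apoe (12.31) and far above for Scap (10.92). Wild type MCAO array 4 was far above for Insig1 (9.74) and Pmvk (9.56), and far below for Fdps (9.10), Scap (9.58) and Ch25h (8.05).

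Wild type naive array 6 held the most such values. It was far above the other 7 for Abca1 (11.21), Abcg1 (11.09), Ch25h (7.38), Fdft1 (11.49), Hsd17b7 (10.90) and Lss (10.64). For the synthesis genes Mvk (7.57), Pmvk (8.91), Fdps (7.24), Sqle (9.88), Msmo1 (8.70), Nsdhl (8.84), Ebp (7.25), Sc5d (4.63) and Dhcr7 (6.15) it was far below. Of the other genes it was far below for Srebf1 (9.22), Srebf2 (8.22), Scap (7.34), Apoe (6.52), Npc1 (6.74) and Cyp46a1 (10.22).

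Among the naive knockout arrays, array 4 was far above for Sqle (10.70), array 5 far above for Hsd17b7 (8.97) and array 6 far below for Nsdhl (10.11).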

How the results depend on the processing

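The number of the 29 genes called was 7 for the wild type and 15 for the knockout response to MCAO. At an adjusted p under 0.01 it was 3 and 6 (7.07% and 11.9% of all genes), and between the sham groups 0 (0.033%). With the replicate block it was 4 and 10 (11.1% and 21.6% of all genes), though the numbers were not taken to pair the arrays. With that block Abca1, Cyp46a1 and Pmvk were lost in wild type and Cyp46a1, Dhcr7, Ebp, Fdft1 and Idi1 in knockout mice. Leaving out each array gave 3 to 9 in wild type, 7 to 17 in knockout mice, 0 to 1 for the interaction, 0 to 0 between genotypes after MCAO, 0 to 1 between the sham groups and 3 to 16 in naive mice. In the same order the share of all genes ran from 7.89% to 16%, 12.8% to 27.2%, 0% to 14.8%, 0.0165% to 0.209%, 0% to 6.16% and 11% to 36.5%. The interaction gave 1 call with the mean of probe sets, Insig2 (9% of all genes called), and 3 with array weights (22.5%). The genotypes after MCAO gave 1 with the actin covariate (5.42%). The sham groups gave 2 with the mean of probe sets (5.93% of all genes called), 0 with repeated quantile normalization (1.67%), 8 with array weights (32.4%), 0 with the actin covariate (0.033%) and 3 from only the arrays compared (19%). The 2 with the mean of probe sets were Npc1 and Insig2 (-0.42, adjusted p = 0.0458). Naive mice gave 5 with the mean of probe sets (17.7% of all genes), 19 with array weights (42%) and 16 with the actin (34.3%) or the Gapdh covariate (36.7%). Without wild type naive array 6, alternatives chosen after seeing the data gave 10 with quantile normalization and 7 with median centring. Naive Apoe reversed to -0.19 there under median centring (0.88 over all arrays). Naive Hsd17b7 (-0.12) reversed to 0.15 with array weights, 0.14 with the actin covariate and, over fits that left out 1 array each, ran from -0.17 to 0.15, the latter without array 6. The cause was not tested. After MCAO the split of higher and lower calls was 3 and 3 in wild type and 13 and 2 in knockout mice with median centring, and 7 and 1, and 7 and 4, with quantile normalization. Of all genes 14.6% and 24.5% were called with median centring, and 15.3% and 20.1% with quantile normalization. With 3 sham arrays per genotype, small changes could go undetected.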

Other observations

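Some neighbours of the pathway were called for the interaction, where 9.59% of all genes were (4.09% higher and 5.5% lower). Over all genes that share fell to 0.044% with the actin covariate. It fell to 0% without knockout sham array 3 and at an adjusted p under 0.01. The interaction was called for Apoc1, an apolipoprotein, at -0.68 (adjusted p = 0.036), for Rxra, the partner of the liver X receptors, at -0.70 (adjusted p = 0.0428), and for Star, which carries cholesterol into mitochondria, at -0.64 (adjusted p = 0.0374). Sec23a, a coat protein of vesicles leaving the endoplasmic reticulum, went the other way (0.63, adjusted p = 0.033). Of the genes listed as other isoprenoid and sterol enzymes Hacl1 (-0.56, adjusted p = 0.0266), which acts in fatty acid breakdown, and Nus1 (0.53, adjusted p = 0.0487) were called, in opposite directions. Apoc1 was also higher in knockout than in wild type sham arrays (0.58, adjusted p = 0.0404), and these sham arrays enter its interaction. In naive mice Tmem97, a sterol-regulated membrane protein, was higher in the knockout by 0.48 (adjusted p = 0.0333) and Nr1h3, a liver X receptor, by 0.36 (adjusted p = 0.012).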
